A study of Drosophila melanogaster with 2 samples.

Results

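The genes described here are 30 Drosophila melanogaster genes that act in the piRNA pathway, taken as a named list from the 13945 protein-coding genes annotated on the main chromosome arms other than Y. The binding data come from a ChIP-seq experiment on CG17802 (gene symbol Nnk), a zinc finger protein, with 1 group of 2 biological replicates and no second condition. Both replicates were whole embryos of mixed sex, 0 to 14 h old, from 1 transgenic line in which CG17802 carries GFP at its C terminus, so the replicates share their genotype. One label field calls the libraries an input control, whereas other fields give CG17802 as the antibody, list a separate control and describe a ChIP of a transcription factor. A member was called bound where the summit of a peak in the authors' reproducible set lay within 500 bp of any annotated transcription start site (TSS) of the gene. That set, 3535 peaks that passed the authors' threshold for reproducibility (IDR), is called thresholded below. Each replicate's own list and a pooled list hold 30000 peaks each, most of them weak. Because the embryos were not dissected, binding in germ cells cannot be told apart from binding in somatic cells.

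piRNAs are small RNAs that guide PIWI-clade Argonaute proteins against transposons, mainly in the gonads. In flies, precursors are transcribed from clusters of transposon remnants, exported from the nucleus, cut and trimmed in cytoplasmic granules and at mitochondria, and loaded into Piwi, Aub or AGO3. Loaded Piwi returns to the nucleus and silences transposon transcription, while Aub and AGO3 cut transposon transcripts and amplify the response in the ping-pong cycle. Mothers load many of these proteins and RNAs into the egg.

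Of the 30 members, 5 had a thresholded summit at a promoter, namely vas, papi, AGO3, Nbr and cuff. This is 16.7% of the list, against 16.9% of all protein-coding genes (2352 of 13945), so the list as a whole was bound about as often as any gene. Of 21 members that act in piRNA processing 4 were bound, of 4 that act in transcription of precursors 1, and of 5 that act in nuclear silencing 0. No member has export of precursors as its main role. Nxf2 resembles export factors in sequence and is counted under silencing. All 6 summits at the 5 bound members lay before the member's nearest TSS in the direction of the gene. So did all 8 summits at the bound genes of the second list described below. The share over all promoter summits was not computed, so neither count marks a trait of these genes. In the second list the nearest TSS is internal for Hsp83 and the stronger flam summit. For papi and the inner AGO3 summit that TSS is internal, and the summits lay 989 and 1306 bp after the 5′ end. For 2 of the 5 bound members another gene's TSS was nearer to the summit. With the 1767 strongest thresholded peaks 3 members (AGO3, papi and vas) were bound, against 9.67% of protein-coding genes.

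**Figure D1:**
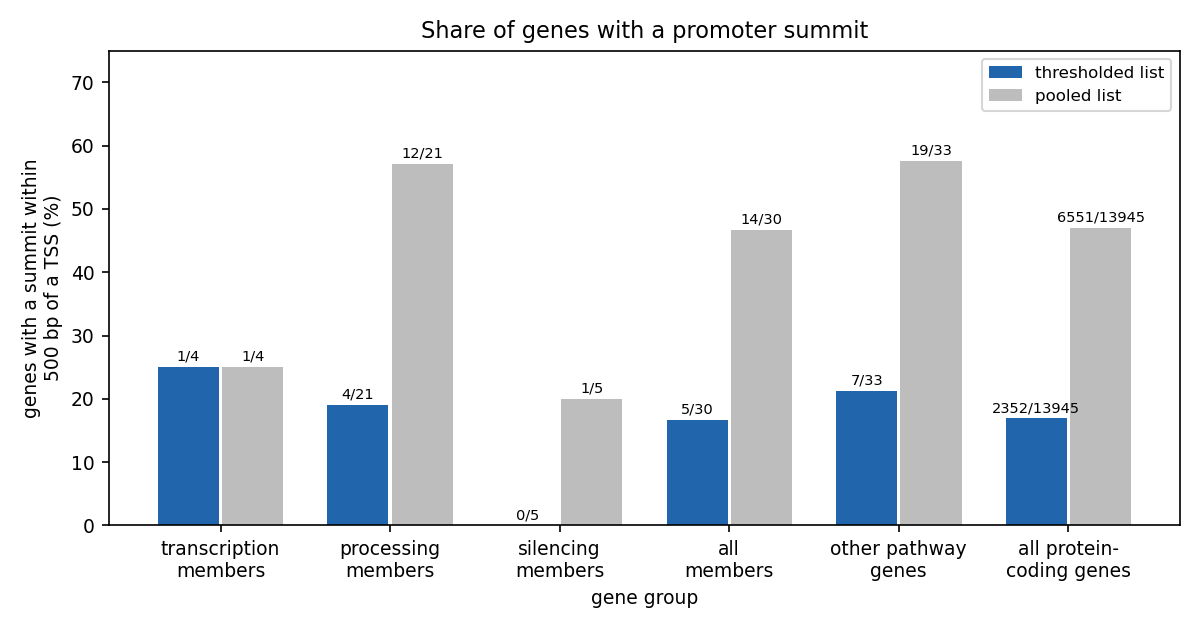
Percentage of genes with a summit within 500 bp of a TSS (vertical axis) for members by pathway step, all members, the other pathway genes and all protein-coding genes (horizontal axis), in the thresholded list and the pooled list; labels give counts. All members (5 of 30) and all protein-coding genes (2352 of 13945) have nearly the same thresholded share.

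The stretches at vas, papi, AGO3 and Nbr are shown to give the sequence under the calls of 4 of the 5 bound members; that of cuff is not printed. Each is 120 bases long, on dm6, read 5′ to 3′ in the direction of the gene except at Nbr, where it is read in the direction of its neighbour Noc2. Capitals mark the letters CGATA or TATAAA on either strand.
vas (chr2L:15061536-15061655, plus strand, the bases before the TSS): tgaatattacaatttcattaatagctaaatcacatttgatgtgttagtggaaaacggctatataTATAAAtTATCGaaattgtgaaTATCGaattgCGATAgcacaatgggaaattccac
papi (chr2L:2221677-2221796, plus strand, centred on the summit): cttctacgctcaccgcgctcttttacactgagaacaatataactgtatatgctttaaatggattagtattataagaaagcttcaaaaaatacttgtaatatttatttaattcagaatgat
AGO3, outer TSS (chr3L:23554473-23554592, plus strand, the bases before the TSS): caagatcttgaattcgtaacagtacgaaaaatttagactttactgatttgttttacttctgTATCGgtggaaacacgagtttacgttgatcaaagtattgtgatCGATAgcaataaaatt
AGO3, inner TSS (chr3L:23555805-23555924, plus strand, the bases before the TSS): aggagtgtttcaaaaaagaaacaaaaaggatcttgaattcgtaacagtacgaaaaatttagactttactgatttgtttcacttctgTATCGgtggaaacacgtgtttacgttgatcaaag
Nbr (chr2L:21163521-21163640, plus strand, the bases before the TSS of Noc2): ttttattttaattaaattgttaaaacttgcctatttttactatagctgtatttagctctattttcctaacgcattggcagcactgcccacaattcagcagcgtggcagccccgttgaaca

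The strongest summit was at vas (FBgn0283442), which encodes the DEAD-box helicase Vasa of the germ plasm and nuage, where it passes RNA between Aub and AGO3. Its peak (chr2L:15061088-15061727) had a signal of 765 in the thresholded set and rank 282 of 3535. Signal is the authors' peak value on an unstated scale, so it ranks peaks within a list. In replicate 1 it overlapped 2 peaks, the stronger with a signal of 249 and rank 242 and the other with a signal of 88.3, and in replicate 2 it overlapped 1 peak with a signal of 538 and rank 299. Both replicates therefore placed vas among their strongest peaks. The summit lay 85 bp before the TSS in the thresholded set, 64 bp from it in replicate 1 and 124 bp from it in replicate 2. Of the 1917 thresholded summits at promoters, 87.7% had a lower signal. The gene solo starts at the same base as vas, so the peak belongs to both promoters. In the stretch printed above, the summit is base 36 and all 3 CGATA matches lie between it and the TSS.

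papi (FBgn0031401) encodes a Tudor protein of the mitochondrial surface that takes part in trimming piRNA 3′ ends. Its peak (chr2L:2221715-2221813, signal 239, rank 1289) had a signal of 55.9 and rank 1679 in replicate 1, and a signal of 184 and rank 1225 in replicate 2. The summit lay in an intron of papi, 352 bp before an internal TSS, 1 of 4 that the annotation gives. With only the 5′ end of the gene as its TSS, papi was not bound. The stretch printed for papi, centred on the summit, holds no CGATA and no TATAAA.

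AGO3 (FBgn0250816), which encodes the Argonaute protein that partners Aub in ping-pong, had 2 thresholded summits, 1 before each annotated TSS. The inner peak (chr3L:23555734-23556063) had a signal of 229 and rank 1360, with its summit 26 bp from the TSS. In replicate 1 its signal was 75.2 at rank 1110, and in replicate 2 it was 147 at rank 1636. The outer peak (chr3L:23554315-23554644) had a signal of 141 and rank 2567, with its summit 113 bp from the TSS. In replicate 1 its signal was 53.2 at rank 1809, and in replicate 2 it was 97.8 at rank 2831. The inner peak thus ranked higher than the outer one in both replicates.

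The 2 promoters of AGO3 share similar sequence, which the printed stretches show. A local alignment paired 585 bp at the outer TSS with 723 bp at the inner TSS, and 93.1% of 579 paired bases were identical, with a longest exact run of 53. Counting the 150 gap columns, 73.9% of 729 aligned columns were identical. Of the 36-base words in the outer peak 94.2% occur once in the reference genome, and 88.1% of those in the inner peak. Reads from the shared words could be assigned to either copy, and how the authors placed such reads is not given in the sources used here.

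cuff (FBgn0260932) encodes Cutoff, a partner of Rhino and Deadlock that keeps transcription of piRNA clusters from ending early. Its peak on arm 2R (chr2R:11885564-11885893, signal 148, rank 2409) had a signal of 39.3 and rank 2773 in replicate 1, and a signal of 132 and rank 1906 in replicate 2, there the stronger of 2 overlapping peaks. The summit lay 338 bp before the TSS of cuff and 144 bp from that of CG13185, the divergent neighbour. It was therefore nearer to CG13185. The weaker overlapping peak of replicate 2 had a signal of 51.6, with its summit 107 bp before the TSS of cuff. Replicate 1 also listed a peak with a signal of 17.5 and its summit 364 bp after that TSS.

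Nbr (FBgn0032924) encodes Nibbler, an exonuclease that trims the 3′ ends of piRNAs and of some miRNAs. Its peak (chr2L:21163417-21163746, signal 141, rank 2569) had a signal of 31.8 and rank 4000 in replicate 1, and a signal of 105 and rank 2594 in replicate 2. The summit lay 499 bp from the TSS of Nbr and 59 bp from that of Noc2, a ribosome assembly gene that runs the other way. In replicate 1 the overlapping summit was 557 bp from the TSS of Nbr and in replicate 2 it was 513 bp, so neither replicate alone would call Nbr from this peak. Weaker summits of the replicates' own lists lay nearer to Nbr, with a signal of 19.8 at 52 bp in replicate 1 and of 45.1 at 483 bp in replicate 2.

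Just outside the limit was armi, which encodes the helicase Armitage that feeds precursors to Zucchini. The nearest thresholded summit lay 568 bp from its TSS, against 499 bp for Nbr, and had a signal of 153. It was 146 bp from a TSS of eIF5B, the divergent neighbour of armi. With a limit of 1000 bp armi would be a 6th bound member, against 19.2% of protein-coding genes, and likewise with the peak interval in place of the summit, against 17.8%. SoYb followed at 1029 bp, shu at 1580 bp and mino at 2426 bp.

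**Figure D2:**
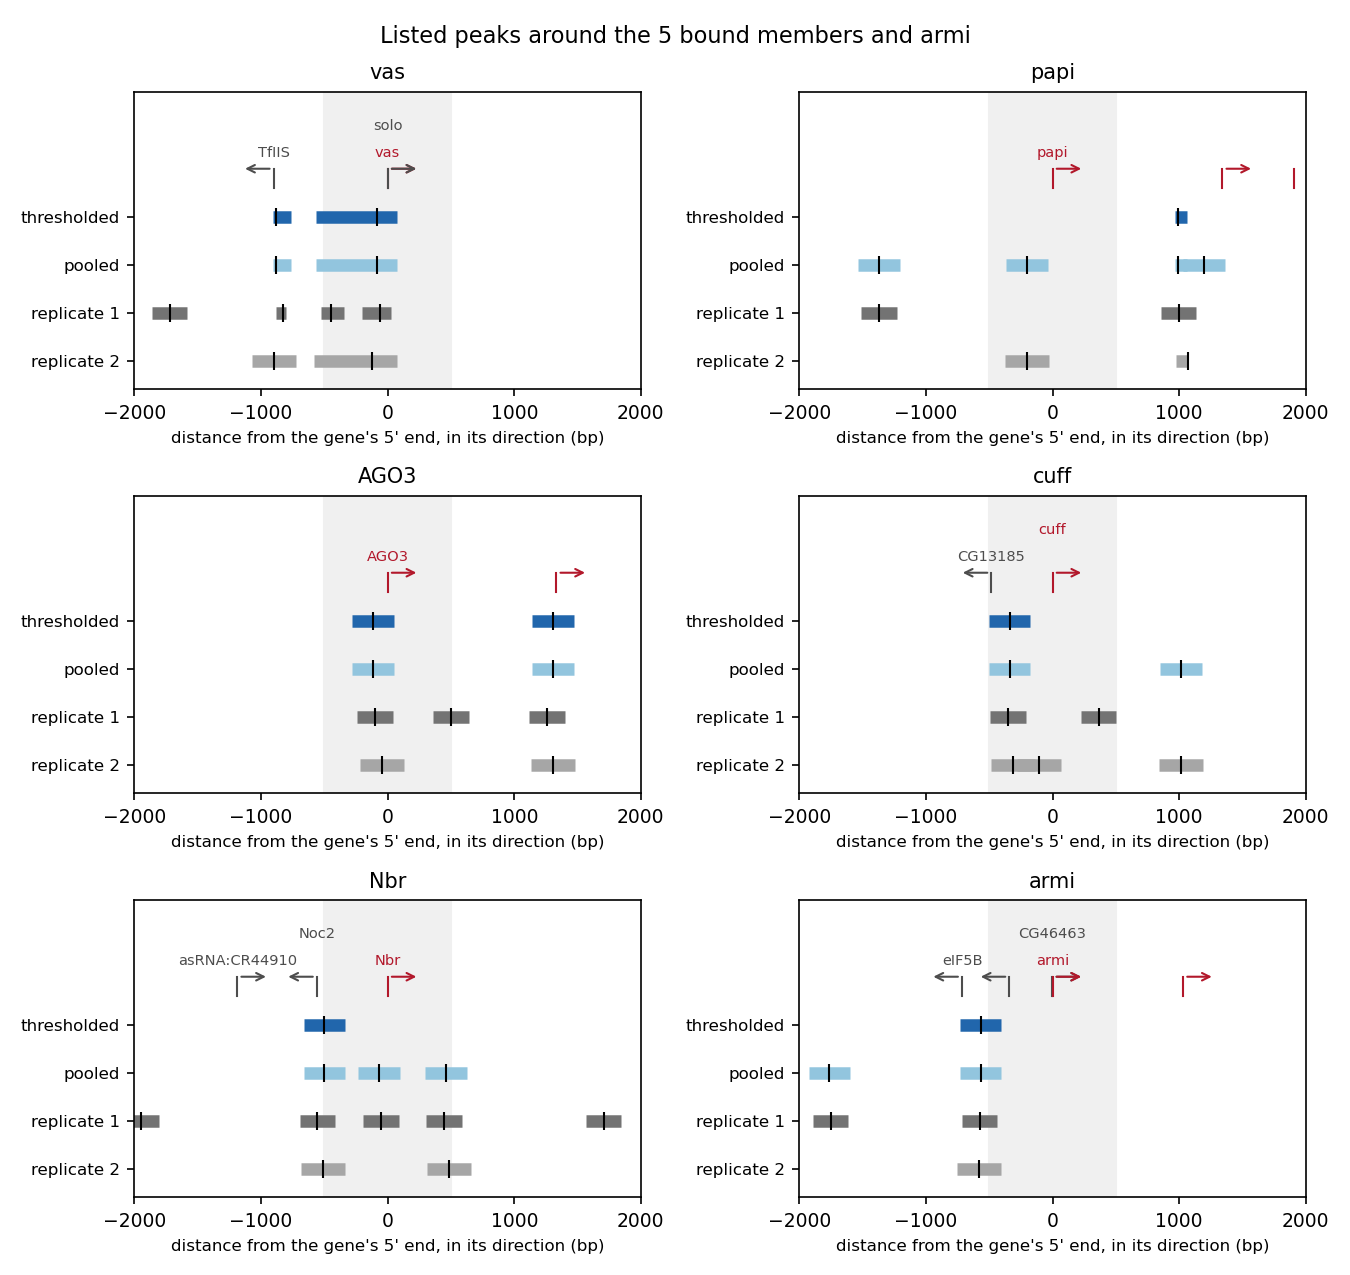
Peaks of the 4 lists (bars, with summits as ticks) within 2000 bp of the 5′ end of vas, papi, AGO3, cuff, Nbr and armi; the horizontal axis is the distance in bp from that 5′ end in the gene's direction, and arrows mark TSSs of the member (red) and of other genes (grey, also at vas, whose start solo shares). The grey band spans 500 bp on each side, and the summits at cuff, Nbr and armi lie nearer to a divergent gene.

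The nearest thresholded summit lay at a median of 5182 bp from a TSS of the 30 members (quartiles 1792 and 12110 bp), against 9855 bp for all protein-coding genes (quartiles 2464 and 25933 bp). Within 10000 bp there were 22 of 30 members (73.3%) and 50.4% of protein-coding genes. No test was made of either difference. For 22 of the 25 unbound members (88.0%), that nearest summit lay at the promoter of another gene, against 64.3% of unbound protein-coding genes. The shared neighbour of piwi and aub, which encode the other Argonaute proteins of the pathway and lie close together on arm 2L, was a summit 6 bp from the TSS of RpL9. It was 16727 bp from piwi and 2671 bp from aub. The nearest summits to arx and mino were likewise at ribosomal protein genes, RpL26 at 2706 bp and RpL4 at 2426 bp. The farthest members were Panx at 51863 bp, spn-E at 43770 bp, moon at 43732 bp and rhi at 32189 bp. Of all 30 members, 3 had a thresholded summit inside the gene, against 9.36% of protein-coding genes (1305 of 13945), which is close to the members' share. These were AGO3, papi and Hen1, the last with a summit 20 bp from the TSS of bsd, a gene that starts inside the Hen1 interval.

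**Figure D3:**
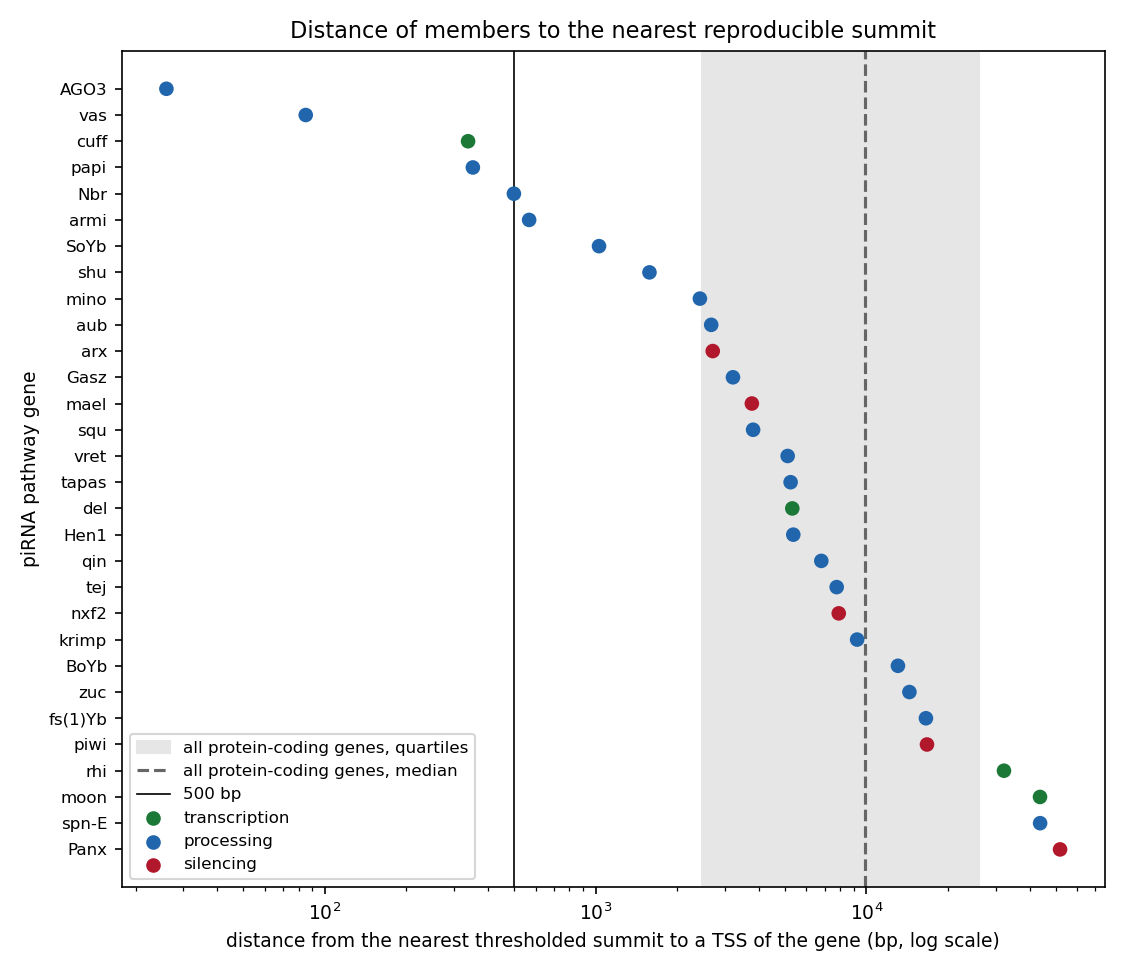
Distance in bp (log scale, horizontal axis) from the nearest thresholded summit to a TSS of each of the 30 members (vertical axis, ordered by distance), coloured by pathway step, with the quartiles (2464 and 25933 bp) and the median (9855 bp) of all protein-coding genes. The 5 bound members lie left of the 500 bp line, Nbr at 499 bp and armi at 568 bp on either side of it.

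The pooled list was searched for the 25 unbound members. It lists the 30000 highest peaks whether or not they were reproducible, so a summit there is not a call. Of the 25, 9 had such a weak summit at a promoter (36%), close to the 36.2% of unbound protein-coding genes. Counting bound members too, 14 of 30 members (46.7%) had one, against 47.0% of protein-coding genes. Bound members held the same rank in both lists, so lower signals at unbound members largely follow from the call. The 9 members all had a signal below 110, the lowest of the thresholded set. mino, which encodes a mitochondrial glycerol-3-phosphate acyltransferase, had the highest, at 68.5 (rank 6789 of 30000). fs(1)Yb, which encodes a Tudor helicase of somatic gonad cells, followed at 53.3 (rank 10733). tapas and squ, which encode a Tudor protein and a nuage protein that binds Aub, had 51.2 and 49.2. The other 5 were shu (43.6), BoYb (37.7), spn-E (36.5), tej (36.2) and arx (34.6), the last near the floor of 33.7 of that list.

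Both replicates' own lists held a promoter summit for 5 of the 25 unbound members (20%), namely mino, squ, tapas, zuc and BoYb, against 21.8% of unbound protein-coding genes. Any summit within 500 bp of any TSS counted in each list, so the summits of the replicates need not coincide. mino had a signal of 33.6 at rank 3604 in replicate 1 and of 48.8 at rank 7202 in replicate 2. squ had 15.9 at rank 24848 in replicate 1 and 63.5 at rank 5039 in replicate 2, so the replicates placed it far apart. tapas had 18.1 at rank 17698 in replicate 1 and 49.5 at rank 7063 in replicate 2. Of the others, 1 member (shu) had a summit in replicate 1 alone and 6 (spn-E, tej, fs(1)Yb, rhi, arx and mael) in replicate 2 alone. Replicate 1 listed a summit for 11 of 30 members and 45.2% of protein-coding genes, and replicate 2 for 16 of 30 members and 47.3%. Both replicates listed one for 10 of 30 members (33.3%), against 34.7% of protein-coding genes.

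No list held a promoter summit for 13 of the 30 members (43.3%), against 40.7% of protein-coding genes. Among them were the Argonaute genes piwi and aub, del and moon of precursor transcription, and Panx and nxf2 of nuclear silencing. Panx encodes Panoramix, which links Piwi on nascent transcripts to heterochromatin factors, and nxf2 its partner. The other 7 were the Tudor protein genes krimp, qin, vret and SoYb, the helicase gene armi, Gasz, which encodes a mitochondrial scaffold, and Hen1, whose product methylates piRNA 3′ ends. Sequence that cannot be placed uniquely was rare at unbound members. For 23 of the 25, all 36-base words within 500 bp of the 5′ end occur once in the reference. The exceptions were squ at 96.7% and mael at 66.8%.

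**Figure D4:**
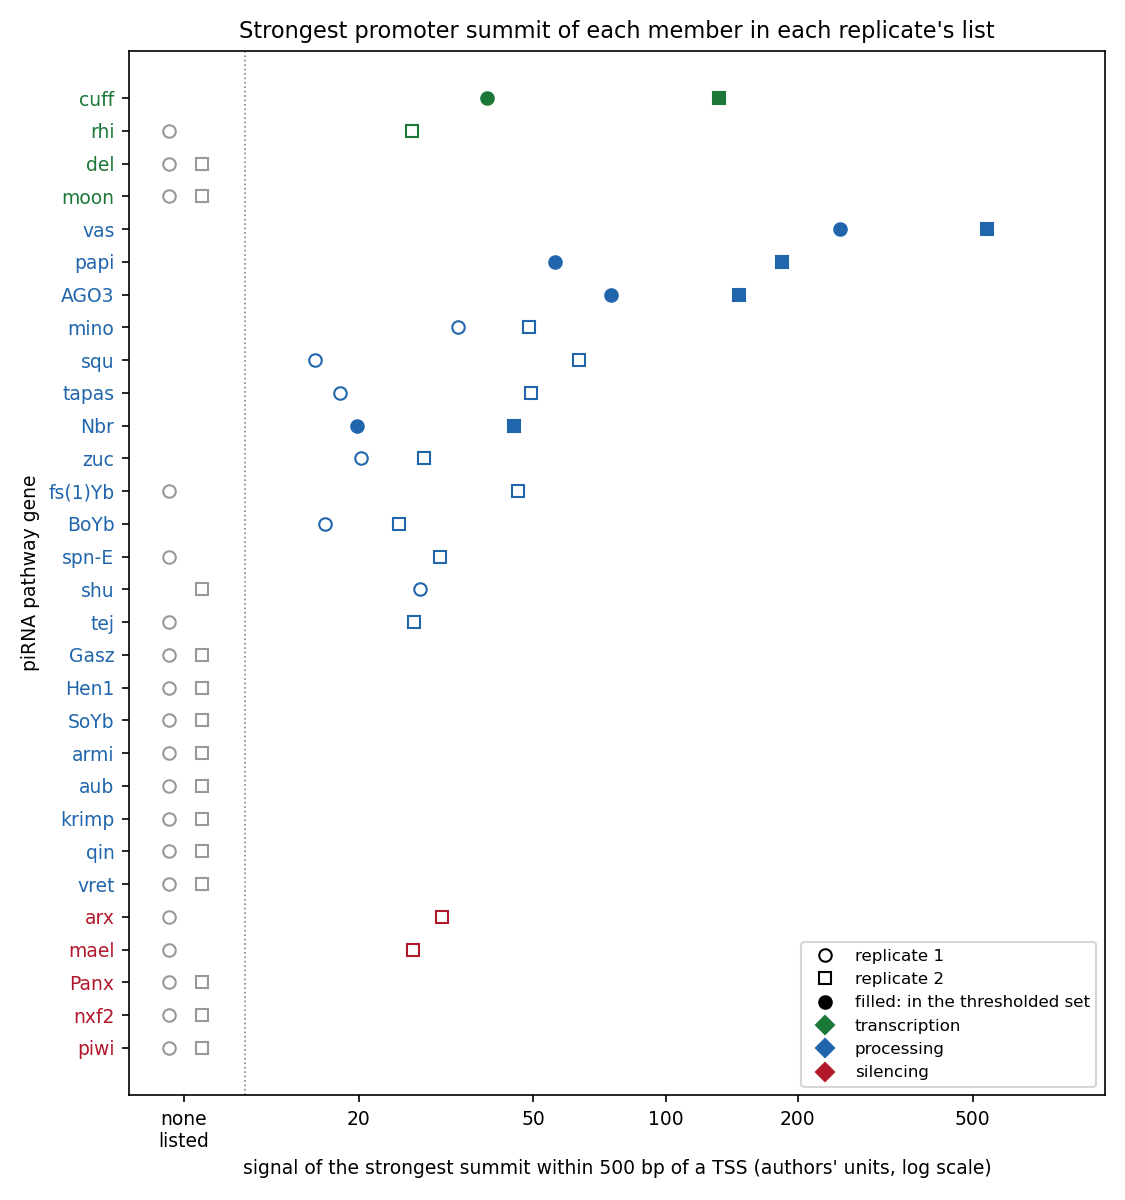
Signal (authors' units, log scale, horizontal axis) of the strongest summit within 500 bp of a TSS of each member (vertical axis) in replicate 1 (circles) and replicate 2 (squares), with members ordered by pathway step and filled where the gene is bound in the thresholded set; the left column marks genes with none listed. vas stands highest in both replicates, and 13 members have none listed in either. The points of Nbr (19.8 and 45.1) are not from the peak that makes it bound, whose replicate summits lay beyond 500 bp.

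By pathway step, the 4 transcription members were cuff, bound as described, and rhi, del and moon, unbound. rhi encodes the heterochromatin protein that marks dual-strand clusters, del its partner Deadlock, and moon the factor that recruits the basal transcription machinery to them. rhi had 1 weak summit, in replicate 2 (26.4, 63 bp from the TSS). The 5 silencing members had no thresholded summit. arx, which encodes the zinc finger protein Asterix, and mael, which encodes the HMG protein Maelstrom, had summits in replicate 2 of 30.9 and 26.6. piwi, Panx and nxf2 had none. The pooled list gave 1 of the 5 silencing members and 12 of the 21 processing members. The smaller steps hold 4 and 5 members, too few to set the shares of the steps against each other.

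The other genes of the pathway, a separate list of 33 that includes the cluster locus flam, were bound in 7 cases (21.2%). The background of 16.9% counts protein-coding genes, and flam is a non-coding locus. Among precursor transcription genes, TfIIA-S, the small TFIIA subunit that Moonshiner recruits, had a summit 62 bp from its TSS (signal 218). flam, the piRNA cluster active in somatic cells of the ovary, had 2 summits. Its stronger one (signal 226, rank 1387) lay 380 bp before an internal TSS and the other (149, rank 2395) 159 bp before its 5′ end. In replicate 1 they had ranks 981 and 4529, and in replicate 2 ranks 1640 and 2035. The stronger one lay in annotated INE-1 and Quasimodo copies. Both lay in sequence whose 36-base words all occur once in the reference. The stretch centred on the summit before the 5′ end is shown because flam is the only cluster locus on either list.
flam (chrX:21631672-21631791, plus strand): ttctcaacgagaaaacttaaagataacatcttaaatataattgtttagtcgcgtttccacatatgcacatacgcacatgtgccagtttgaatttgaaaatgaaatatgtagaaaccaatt

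Of 10 export genes 2 were bound, tho2 of the THO complex (signal 184, 34 bp from the TSS) and emb, which encodes the exportin Crm1 (163, 84 bp). Nxf3 and Boot, the export adaptors specific to piRNA precursors, were not bound. A thresholded summit with a signal of 480 lay 538 bp from the TSS of Boot, just outside the limit, and 77 bp from that of Uhg4. Of 6 other processing genes 1 was bound, Hsp83, the Hsp90 chaperone that helps load Argonautes (457). The Hsp83 summit lay in an exon of the gene, 108 bp before an internal TSS. Of 11 other silencing genes 2 were bound. ova, whose product joins the demethylase Su(var)3-3 to HP1a, had a signal of 624 at 25 bp, in a peak 1062 bp wide. The strongest replicate peaks that overlap it had their summits beyond 500 bp from the TSS. Their signals were 484 at 550 bp in replicate 1 and 1827 at 533 bp in replicate 2. The TSS of eEF1delta lies 815 bp from that of ova on the same side, so these summits were nearer to eEF1delta. The replicates' summits near the TSS of ova had lower signals, 219 at 23 bp and 379 at 20 bp. CoRest had a signal of 116 at 150 bp, and its summit was nearer to Idh3a at 25 bp. Also just outside the limit was wde, with a thresholded summit (244) in its own intron, 508 bp from a TSS. In the pooled list 19 of the 33 genes had a summit (57.6%), against 47.0% of protein-coding genes. These were 2 of 6 transcription genes, 4 of 10 export genes, 3 of 6 processing genes and 10 of 11 silencing genes, among the last egg (66.4), which encodes the histone methyltransferase that acts with Panoramix, and Mi-2 (99.1), which encodes a chromatin remodeller.

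AGO3 is the only member in a centromere-proximal segment (3L above 23 Mb), where 44.4% of protein-coding genes were bound. Of the 29 members elsewhere 4 were bound (13.8%), against 16.1% of protein-coding genes outside these segments and chromosome 4. The gene spans 135 kb, and 9 thresholded summits lay inside it, which is 66.6 per Mb against 20.5 per Mb in the remainder of the segment. Counting AGO3, 7 protein-coding genes held at least 9. The strongest of the 9 was not at a promoter. It lay in an intron 24879 bp from the nearest AGO3 TSS, with a signal of 1283 and rank 172, and had signals of 409 in replicate 1 and 880 in replicate 2. Of its 36-base words 87.6% occur once in the reference.

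Within AGO3, 5 of the 9 summits lay in annotated transposable elements, the kind of sequence that the pathway acts on, against 16 of 111 summits (14.4%, these 5 included) in the whole segment and 1.98% of all thresholded summits. The elements were 2 F elements (signals 419 and 408), a 1360 element (458), and nested GATE and Stalker4 copies with 2 peaks that overlap each other (231 and 116) and are counted separately here. In the 1360 peak all 36-base words occur once, and in the F peaks 79.8 and 82.0% do. In the GATE and Stalker4 peaks 0 and 30.2% do, and the part of read placement in those signals was not tested.

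**Figure D5:**
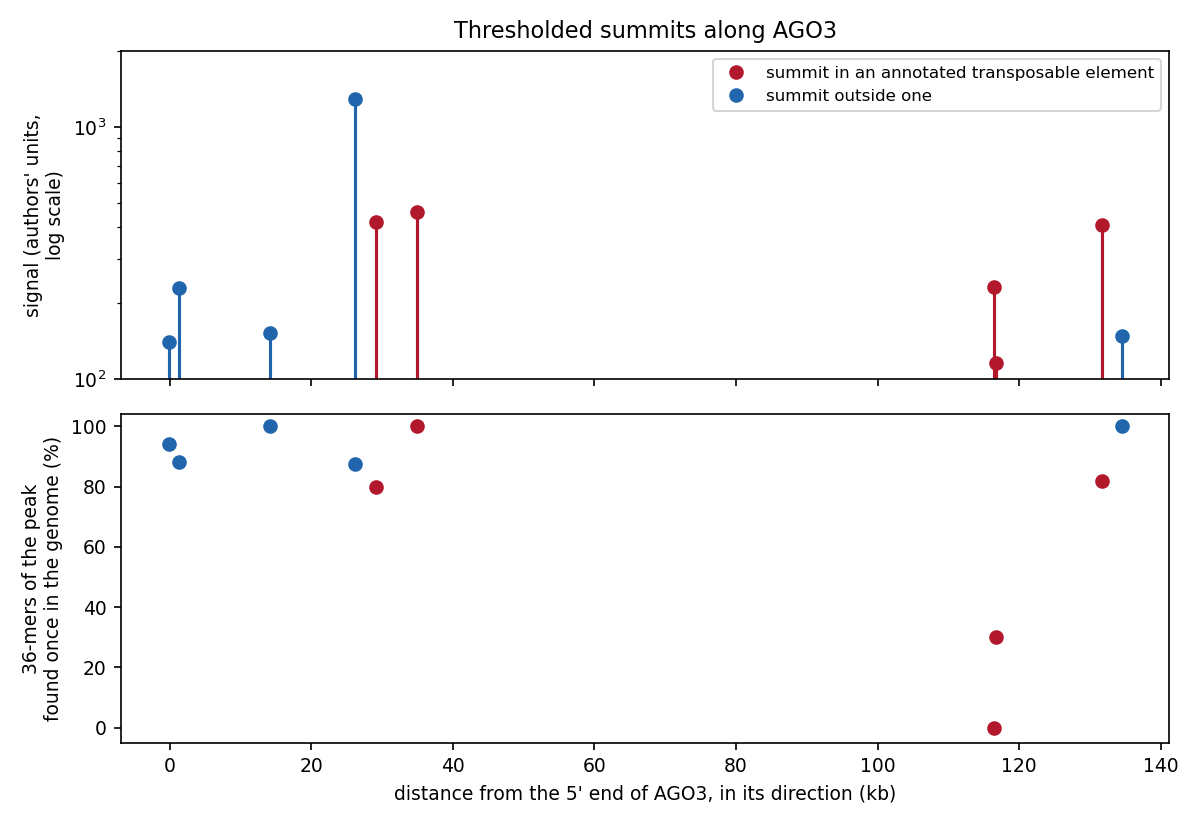
Signal (authors' units, log scale, top) and percentage of the peak's 36-base words found once in the reference genome (bottom) for thresholded summits along AGO3, against distance in kb from its 5′ end; red marks summits in annotated transposable elements and blue the others. The highest summit (1283) lies inside the gene, and the pair of summits at the GATE and Stalker4 copies has 0 and 30.2% unique words.

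Promoter sequence was searched for 4 motifs, on both strands, as a description without a test. The DRE, TATCGATA, is the site of DREF, a factor of housekeeping promoters. It lay between 250 bp before and 50 bp after the 5′ end of 9 of 30 members (30%), against 9.36% of 13945 protein-coding promoters. None of these 9 was bound. They were BoYb, Gasz, Hen1, Panx, arx, fs(1)Yb, qin, spn-E and tej. Among protein-coding genes at large, those with a DRE were bound in 28.6% of cases and those without in 15.7%. At least 2 separate matches of CGATA, the core bound by BEAF-32, were in 17 of 30 member promoters (56.7%), against 22% of protein-coding promoters. Every DRE holds a CGATA, so these counts overlap. GGTCACAC, bound by M1BP and called Motif 1, was in 5 of 30 (16.7%), against 7.70%. TATAAA was in 15 of 30 (50%), against 45.8%.

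Around the 6 summits at bound members, within 100 bp on each side, there was no DRE and no Motif 1, which 6.48 and 3.82% of all thresholded summits had. At least 2 CGATA were near 2 of the 6, at vas (3 matches) and at the inner AGO3 TSS (2 matches), against 12.1% of all thresholded summits. TATAAA was near 2 of 6 as well, against 32.3%. The stretch printed for the outer AGO3 TSS also holds 2 CGATA, but the later of them runs past the end of the 100 bp window.

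The following promoters of unbound members are shown as 3 examples of the 9 with a DRE and no thresholded peak, not as those with the DRE nearest to the TSS. Each is the 120 bases before the TSS on dm6, with the DRE and other CGATA or TATAAA matches in capitals. In spn-E the DRE and TATAAA overlap.
spn-E (chr3R:15837299-15837418, plus strand): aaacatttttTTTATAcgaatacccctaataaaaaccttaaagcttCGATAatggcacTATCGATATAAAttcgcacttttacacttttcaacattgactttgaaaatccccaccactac
qin (chr3R:18590907-18591026, plus strand): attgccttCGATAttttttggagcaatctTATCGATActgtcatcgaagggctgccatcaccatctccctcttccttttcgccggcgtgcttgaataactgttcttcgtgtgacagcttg
fs(1)Yb (chrX:2720348-2720467, plus strand): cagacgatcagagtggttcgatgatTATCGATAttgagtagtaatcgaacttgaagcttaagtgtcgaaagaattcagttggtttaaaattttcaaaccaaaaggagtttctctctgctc
The DRE starts 62 bp before the TSS in spn-E, 91 bp before it in qin, a Tudor and RING protein gene of ping-pong, and 95 bp before it in fs(1)Yb. Of these, qin had no summit in any list, whereas spn-E and fs(1)Yb had weak summits in replicate 2 (30.7 and 46.2) and none in replicate 1.

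Close neighbours of the members were also counted. Another gene's TSS lay within 500 bp for 13 of 30 members (43.3%), against 34.4% of protein-coding genes. With such a neighbour 2 of 13 members were bound, against 28.9% of protein-coding genes with one. Without one 3 of 17 members were bound (17.6%), against 10.5% of protein-coding genes. The 3 include Nbr, whose neighbour Noc2 starts 558 bp away, just beyond the limit, and 59 bp from the summit. These counts are small and were not tested.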

How the data were processed

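ChIP-seq of CG17802-GFP was measured in 2 replicates of whole embryos, sheared by sonication to 200 to 800 bp per the labels. Per the accompanying file descriptions, the authors derived 4 peak lists on dm6 from alignments together with a control: 1 per replicate, 1 pooled and the IDR-thresholded set. The sources used here name no aligner, peak caller or IDR threshold. The deposited signal column ranks peaks within a list; its scale is not stated. The deposited −log10 q-value was not used. Summits are the start plus the deposited summit offset (other values). Where the sum fell outside the peak (1 peak of replicate 1 and 4 of replicate 2) the midpoint was used. Read depth is unknown, so no interval from depth is given.

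Genes and TSSs came from Ensembl release 115 (BDGP6, dm6 coordinates) without transposable elements; all 30 members matched by symbol, and Nxf3 and Boot in another letter case. Coordinates are 1-based. Sequence came from the RefSeq Release 6 assembly. Uniqueness was the share of 36-base words found once in it on either strand. The AGO3 copies were aligned locally (match 1, mismatch -2, gap opening -4, extension -1). Centromere-proximal segments are 2L above 22 Mb, 2R below 6, 3L above 23, 3R below 4.5 and X above 22.5 Mb. Python 3.11.15, numpy 2.4.6 and pandas 2.3.3 were used, and calling was tested on simulated peaks. No significance test was made: there is 1 group, genes are not samples, and the members, lists and motifs were chosen with earlier results of these data known. Named genes are all members, bound genes of the second list, nearer neighbours of bound members, and unbound members with the highest pooled signal. Other genes were chosen after their values were seen. These were RpL9, RpL26, RpL4, bsd, eIF5B, eEF1delta, Uhg4 and the unbound second-list genes Nxf3, Boot, wde, egg and Mi-2.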

Additional observations from a re-analysis of the deposited data

How the results depend on the processing

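The count of bound members depended on the definition. It was 5 as reported, 2 at 200 bp (AGO3 and vas, against 12.3% of protein-coding genes), 3 with each summit given to its nearest gene (12.3%), 3 with the 1767 strongest thresholded peaks (against 9.67%), and 14 with the whole pooled list (47.0%). To leave out a replicate, the 3535 strongest peaks of the other replicate's own list were used, without a new IDR threshold. This gave 4 members each time, with Nbr lost, and a background of 16.5 to 16.8%. AGO3 and vas were bound under all 9 alternatives, and 15 members under none. The other pathway genes gave 4 with the strongest peaks, 19 with the pooled list and 7 to 9 without a replicate. At 1000 bp and with peak intervals they gave 9 each time. Transcription members gave 0 in the 3 stricter settings (200 bp, nearest gene, strongest peaks), and 1 without a replicate. Processing members gave 2 at 200 bp, 12 with the pooled list and 3 without a replicate. Silencing members gave 1 with the pooled list and 0 without a replicate. At 1000 bp and with peak intervals 6 members were bound, armi being added, and with 5′ ends only 4 (against 15.2%). No paired analysis was possible because there is 1 group. Peak signals carry no depth, so how many weak sites were missed is unknown.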
